A study of Mus musculus with 6 samples.

Results

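The Schwann cell and myelin genes *Mbp*, *Pmp22*, *Prx*, *Sox10*, *S100b*, *Mag* and *Cntnap1* were followed in the hindlimb gastrocnemius (GAS) muscles of Kvβ2 KO and WT mice. They were chosen by name as genes of peripheral nerve, with earlier results of these data known. The set makes up 7 of the 37979 genes in the deposited table. Each of 6 untreated male mice, 3 per genotype and 20 weeks of age, gave 1 RNA-seq library from GAS muscle. Kvβ2 is the β2 subunit of voltage-gated potassium channels, encoded by *Kcnab2*. Both genotypes came from crosses of parents with 1 null allele, and the KO mice were null in every tissue, so a muscle was compared together with the nerve that supplied it. The libraries of both genotypes carry the replicate numbers 1, 7 and 8. Values are FPKM, the fragments assigned to a gene per kilobase of its transcript, scaled by how many fragments the library had mapped.

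A Schwann cell wraps a segment of a motor or sensory axon in many layers of its own membrane, and the compacted layers form myelin. The transcription factor SOX10 keeps the cells in the Schwann lineage, MBP and PMP22 are built into compact myelin, and periaxin anchors the outer face of the sheath. Kvβ2 itself is known to sit with Kv1 channels beside the nodes of myelinated axons. The cell bodies of motor axons lie in the spinal cord, so a dissected muscle holds their axons and Schwann cells but not their nuclei. An amount of RNA in a whole muscle does not tell apart fewer Schwann cells from less RNA per cell.

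No difference between the genotypes was detected for the 7 genes, and the spread between mice was wide. *Mbp* averaged 12.6 ± 8.67 FPKM in the WT and 15.8 ± 13.3 FPKM in the KO mice (mean ± SD, n = 3 each), and *Pmp22* averaged 31.0 ± 14.1 FPKM and 30.7 ± 15.97 FPKM. Of the 7 genes, 4 reached the mean of 0.5 FPKM that was required for the test across all genes, and 0 of these 4 passed it at an adjusted *p* under 0.05 or at an unadjusted *p* under 0.05. Over the 12334 genes tested, 0.324% were called at the adjusted threshold, 0.251% as higher and 0.073% as lower in KO muscle, and 26.2% at the unadjusted one. In both genotypes the library of replicate 7 was the highest for each of the 7 Schwann cell and myelin genes, which held for 7.89% of all tested genes.

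The reference sequences just before the transcription starts are shown here for 3 of the genes, as a description. Whether they bear on the levels of the genes was not tested. RefSeq windows were used for *Pmp22*, *Prx*, *S100b* and *Mag*, 9 windows in all. No window was available for *Sox10* and *Cntnap1*, and *Mbp* was left out of the search. Each window is 250 bases long on GRCm38.p6 and ends at the base before a start. *Pmp22* has starts far apart, so its most upstream and its most downstream windows are given. They lie on the plus strand at chr11:63128732-63128981 and chr11:63132553-63132802. The *Prx* window is chr7:27499074-27499323 on the plus strand, and the *Mag* window shown, chr7:30914864-30915113 on the minus strand, is the one of 3 that holds ACAAAG but not CCAAT. Capitals mark CCAAT or ACAAAG, or their reverse complements ATTGG and CTTTGT.
Pmp22, most upstream start: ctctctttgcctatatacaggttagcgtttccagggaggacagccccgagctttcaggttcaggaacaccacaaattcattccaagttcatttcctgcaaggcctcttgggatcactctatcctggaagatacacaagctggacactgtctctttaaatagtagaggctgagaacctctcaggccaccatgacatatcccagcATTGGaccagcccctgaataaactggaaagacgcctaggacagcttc
Pmp22, most downstream start: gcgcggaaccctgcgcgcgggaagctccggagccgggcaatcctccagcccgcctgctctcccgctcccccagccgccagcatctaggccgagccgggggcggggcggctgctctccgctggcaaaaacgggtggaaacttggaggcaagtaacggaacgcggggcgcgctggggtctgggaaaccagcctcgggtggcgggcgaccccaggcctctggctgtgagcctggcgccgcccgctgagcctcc
Prx: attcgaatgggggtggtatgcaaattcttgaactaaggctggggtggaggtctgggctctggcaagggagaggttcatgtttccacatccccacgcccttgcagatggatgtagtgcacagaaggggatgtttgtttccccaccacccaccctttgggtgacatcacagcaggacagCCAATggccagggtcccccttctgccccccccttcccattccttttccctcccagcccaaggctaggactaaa
Mag: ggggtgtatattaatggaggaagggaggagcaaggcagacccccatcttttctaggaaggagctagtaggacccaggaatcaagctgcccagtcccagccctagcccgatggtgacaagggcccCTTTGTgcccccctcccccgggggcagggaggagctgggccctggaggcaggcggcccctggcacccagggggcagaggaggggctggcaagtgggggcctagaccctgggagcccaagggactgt
The letters CCAAT were present in 6 of the 9 windows, against 33.8% of all 32851 windows of the same length. All 4 genes had such a window, but *Pmp22* and *Mag* have several windows, some of which overlap. For the *S100b* window and for a *Pmp22* and a *Mag* window, all with CCAAT, the bases after the start matched no annotated transcript. These windows are not shown. A share per gene was not computed. ACAAAG, the core of a SOX site, was present in the 2 overlapping *Mag* windows of this kind alone, against 16.5% of all windows. TATAAA and GCGNGGGCG, the letters of an EGR site, were in 0 of the 9 windows, against 12.4% and 4.70% of all windows. The *Pmp22* windows shown differed in base composition, with 48.8% GC and 3 CpG in the upstream one and 73.6% GC and 27 CpG in the downstream one. The *Prx* window had 56.4% GC and 2 CpG, beside a median of 52.4% GC and 6 CpG over all windows. These matches are a description of letters, and binding was not measured.

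The compact myelin gene *Mbp* (ENSMUSG00000041607, chromosome 18, 82475146 to 82585637, plus strand of GRCm38) encodes myelin basic protein, which holds the inner faces of the membrane together. It was measured at 11.1, 21.9 and 4.75 FPKM in WT mice 1, 7 and 8, against 5.69, 30.8 and 10.9 FPKM in KO mice 1, 7 and 8. The genotypes overlapped, with the highest and the lowest library 6.49-fold apart. Its log2 fold change was 0.24 (standard error 0.70, 95% confidence interval -1.40 to 1.87, adjusted *p* = 0.853, limma). *Pmp22* (ENSMUSG00000018217, chromosome 11, 63128982 to 63159547) encodes a membrane protein of compact myelin whose gene dosage is linked to inherited neuropathy. *Pmp22* was measured at 35.1, 42.6 and 15.3 FPKM in WT mice 1, 7 and 8, against 17.9, 48.6 and 25.6 FPKM in KO mice 1, 7 and 8. Its log2 fold change was -0.01 (standard error 0.46, interval -1.09 to 1.06, adjusted *p* = 0.9898, limma). *Pmp22* is also expressed outside nerve, and it made up 54.8% to 71.2% of the summed FPKM of the 7 genes.

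**Figure D1:**
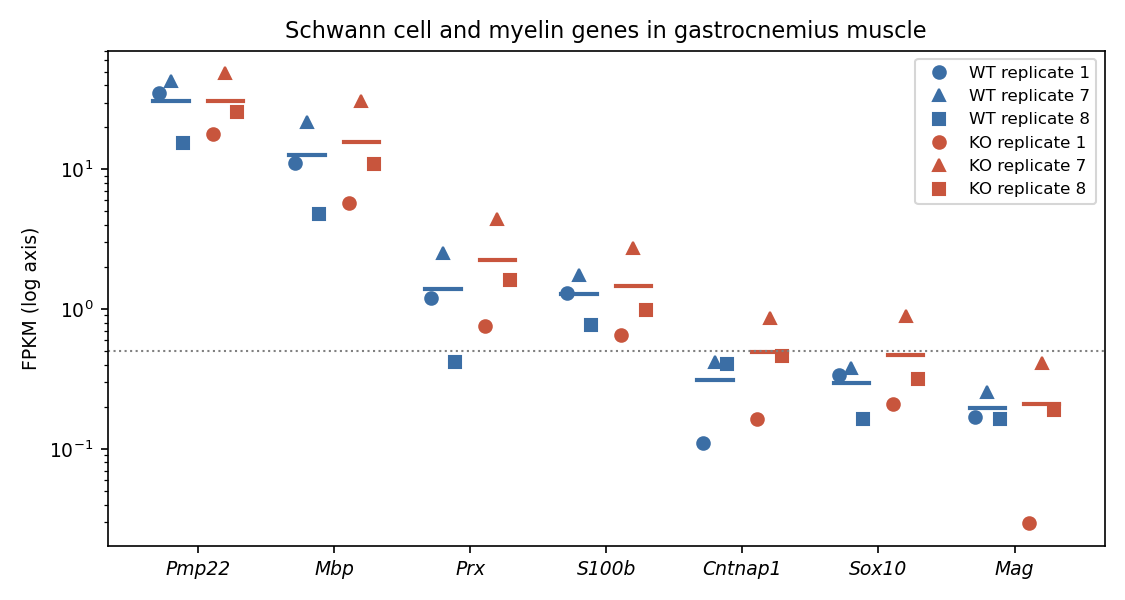
FPKM on a log axis for each of the 7 genes, ordered by mean level, with a point per library, short lines for the genotype means and a dotted line at 0.5 FPKM. The triangles of replicate 7 sit highest in both genotypes for every gene, and WT and KO points overlap throughout.

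The anchoring gene *Prx* (ENSMUSG00000053198, chromosome 7, 27499324 to 27520214) encodes periaxin, which links the outer Schwann cell membrane to the dystroglycan complex. *Prx* was measured at 1.20, 2.52 and 0.419 FPKM in WT mice 1, 7 and 8, against 0.755, 4.40 and 1.62 FPKM in KO mice 1, 7 and 8. *Prx* had the largest log2 fold change of the 4 tested genes, 0.63, but its standard error was 0.73 and its interval ran from -1.07 to 2.34 (adjusted *p* = 0.606, limma). On the linear scale that interval reaches from 0.476 to 5.05 times the WT level. *S100b* (ENSMUSG00000033208, chromosome 10, 76253853 to 76261159) encodes a calcium-binding protein used as a marker of Schwann cells, and adipocytes express it as well. It was measured at 1.30, 1.76 and 0.766 FPKM in WT mice 1, 7 and 8, against 0.653, 2.75 and 0.981 FPKM in KO mice 1, 7 and 8. The lowest and the highest of all 6 libraries were both KO libraries. Its log2 fold change was 0.01 (standard error 0.51, interval -1.18 to 1.21, adjusted *p* = 0.990, limma).

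Among the 3 genes under 0.5 FPKM, *Sox10* (ENSMUSG00000033006, chromosome 15, 79154908 to 79165240, minus strand) was measured at 0.340, 0.380 and 0.163 FPKM in WT mice 1, 7 and 8, against 0.209, 0.887 and 0.315 FPKM in KO mice 1, 7 and 8. KO replicate 7 stood well above every other library, and the remaining 5 libraries overlapped. The difference of the mean log2(FPKM + 0.1) was 0.40 (exact permutation test, two-sided, *p* = 0.6). *Mag* (ENSMUSG00000036634, chromosome 7, 30899176 to 30914873, minus strand) encodes myelin-associated glycoprotein of the membrane next to the axon. It was measured at 0.170, 0.257 and 0.163 FPKM in WT mice 1, 7 and 8, against 0.0294, 0.408 and 0.191 FPKM in KO mice 1, 7 and 8, a log2 difference of -0.13 (exact permutation test, two-sided, *p* = 0.9). *Cntnap1* (ENSMUSG00000017167, chromosome 11, 101170523 to 101190724) encodes CASPR, which joins axon to glia beside the node and is made by the neuron. It was measured at 0.110, 0.421 and 0.402 FPKM in WT mice 1, 7 and 8, against 0.165, 0.862 and 0.462 FPKM in KO mice 1, 7 and 8, a log2 difference of 0.46 (exact permutation test, two-sided, *p* = 0.5). With 3 libraries on each side, such a test cannot go below 0.1.

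The low genes rest on few fragments. Since no counts were used, depth was estimated from low FPKM values, which fell on steps of whole fragments, at 20500000 to 21600000 fragments in the WT and 14900000 to 19400000 in the KO libraries. Every KO library was thus less deep than every WT library. With the longest coding transcript of each gene, *Mag* came to at most 1.00 fragment in KO replicate 1 and 18.1 in KO replicate 7, and *Sox10* to at most 8.20 and 45.2. *S100b*, with 1 annotated transcript, came to 12.985 fragments in KO replicate 1 and 71.1 in KO replicate 7. *Prx* held at most 47.8 to 451 fragments, so the order of its libraries does not rest on single fragments. No gene of the 7 was listed at 0 in any library. *S100b* overlaps *Dip2a* on the opposite strand, and *Cntnap1* overlaps *Plekhh3* on the opposite strand, which was at a mean of 4.802 FPKM. The sources used here do not say whether the quantification used the strand, so fragments of these pairs may have been shared. The deleted gene *Kcnab2* was at up to 0.233 FPKM in WT muscle and at 0.0151 FPKM or less in KO muscle, below each WT library. The muscle marker *Acta1* was at 5029 to 9656 FPKM in WT and 12044.5 to 13917 FPKM in KO muscle, without overlap, as for 34.5% of all tested genes. The muscle fiber genes *Myh7* and *Tnnt1*, named after their values were seen, were at 0.0513 and 1.10 FPKM in WT replicate 8. Elsewhere they were at 15.2 to 77.4 FPKM and at 36.5 to 251 FPKM.

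**Figure D2:**
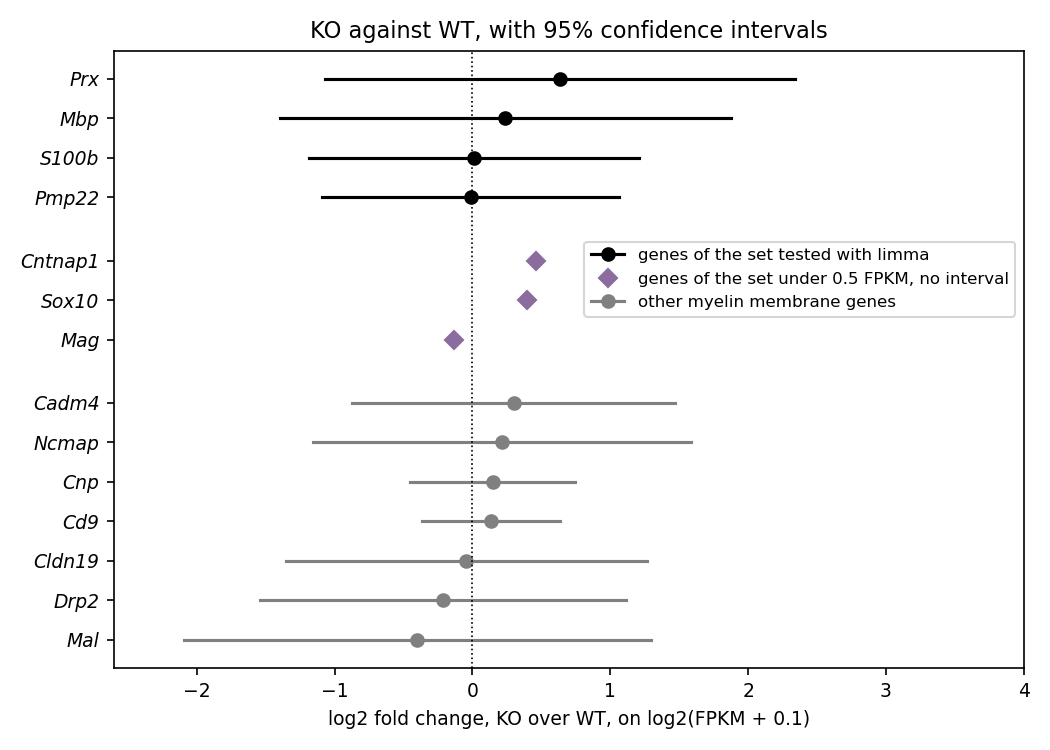
Log2 fold change of KO over WT, with 95% confidence intervals from limma for the 4 tested genes of the set (black) and for 7 of the 9 other tested myelin membrane genes (grey), and without an interval for the 3 genes under 0.5 FPKM (diamonds). Every interval crosses 0, and that of *Prx* runs from -1.07 to 2.34.

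The direction of the differences depended on which libraries were in the fit. Without KO replicate 7, the log2 fold change of *Mbp* was -0.41, that of *S100b* -0.54 and that of *Sox10* -0.09. Without KO replicate 1, they were 0.80, 0.42 and 0.75. WT replicate 8, the lowest WT library for 6 of the 7 genes, also decided some directions, since without it *Mbp* was at -0.33 and *S100b* at -0.29, while *Sox10* stayed at 0.13 and *Cntnap1* was at 0.66. *Pmp22* turned positive, up to 0.31, when WT replicate 1 or 7 or KO replicate 1 or 8 was left out, and *Mag* reached 0.39 without KO replicate 1. *Prx* and *Cntnap1* stayed at or above 0 in each of these fits, at 0.00 and 0.02 without KO replicate 7. The base composition of transcripts bears on the same values. Over 11985 tested genes, log2 fold changes rose with GC content (Spearman's rho = 0.70, a description over genes that share the same 6 libraries). The 7 genes have 48.3% (*S100b*) to 62.7% (*Sox10*) GC, and the median of tested genes is 50.1%. With the GC trend removed per library, log2 fold changes were -0.05 for *Mbp*, -0.15 for *Pmp22*, 0.11 for *Prx*, 0.08 for *S100b*, -0.32 for *Sox10*, -0.58 for *Mag* and 0.03 for *Cntnap1*. The part of base composition in the raw differences was not tested.

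The 7 genes varied together from mouse to mouse. Replicate 7 was the highest library among KO and among WT muscles for 7 of 7, including the 4 tested genes. The order from high to low was 7, 8 and 1 in the KO muscles for all 7 genes. In the WT muscles it was 7, 1 and 8 for 6 of them, *Cntnap1* being the exception with WT replicate 1 lowest. Both orders together were found for 1.91% of tested genes. These orders were noticed in the values and then counted, and the KO and WT replicates of one number are different mice. The summed FPKM of the 7 genes was 49.4, 69.8 and 22.0 in WT replicates 1, 7 and 8 and 25.4, 88.7 and 40.0 in KO replicates 1, 7 and 8. The highest library held at least 3 times the level of the lowest for 4 of the 4 tested genes, against 10.1% of all tested genes. On the log2 scale the SD within genotypes was 1.19 for *Prx*, 1.16 for *Mbp*, 0.80 for *S100b* and 0.75 for *Pmp22*. Between 2.29% and 4.65% of tested genes had a larger one, and the median over tested genes was 0.22.

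**Figure D3:**
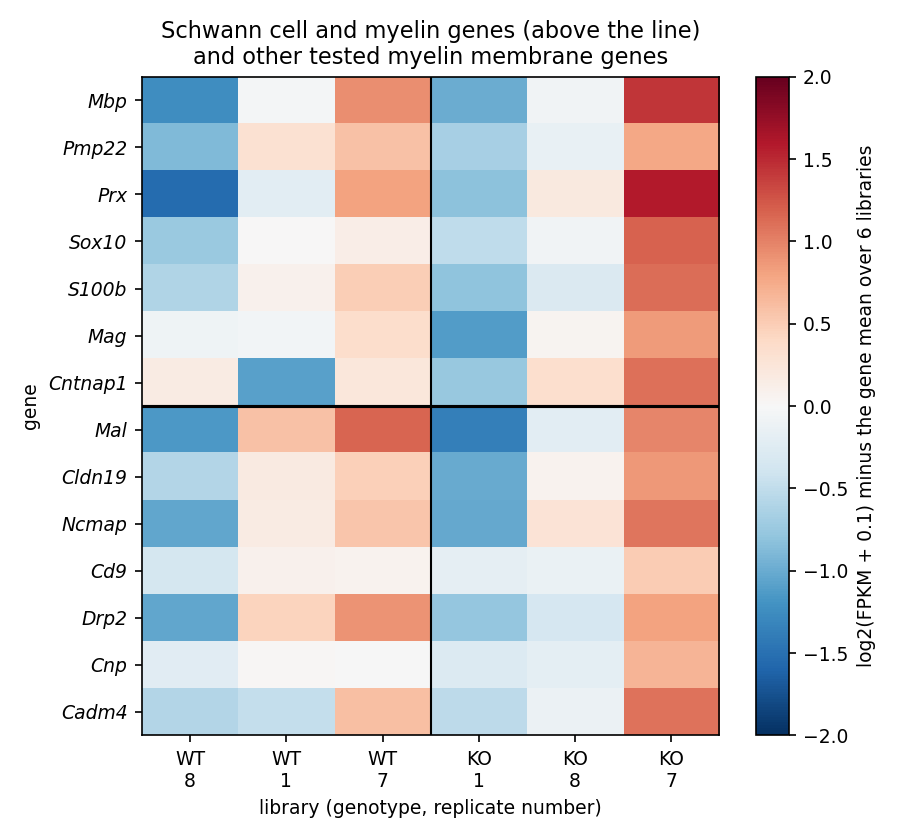
Log2(FPKM + 0.1) of each gene minus its mean over the 6 libraries, in colour, for the 7 genes (above the line) and 7 of the 9 other tested myelin membrane genes (below it). Columns run from WT replicates 8, 1 and 7 to KO replicates 1, 8 and 7, and most rows go from blue to red within each genotype.

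Relative to *Mbp* in the same library, most of the Schwann cell genes spanned a narrower range than their levels did. *Prx* spanned 10.5-fold over the 6 libraries in level and 1.69-fold as a ratio to *Mbp*. *Sox10* spanned 5.44-fold in level and 2.12-fold as a ratio, and *S100b* 4.205-fold and 2.01-fold. *Pmp22* spanned 3.18-fold in level and 2.04-fold as a ratio, which was lowest in the replicate 7 libraries, at 1.95 in WT and 1.58 in KO. *Cntnap1* did not narrow, with 7.84-fold in level and 8.55-fold as a ratio, from 0.00990 in WT replicate 1 to 0.0847 in WT replicate 8. For *Mag*, which rests on 1.00 fragment in KO replicate 1, no fold is given. The ratio of *Prx* to *Mbp* was 0.108, 0.115 and 0.0882 in the WT and 0.133, 0.143 and 0.149 in the KO replicates. It was the one of 6 ratios that did not overlap between the genotypes, a log2 difference of 0.45 (*p* = 0.1 by an exact two-sided permutation test, the lower limit of this design). The ratio was picked after its values were seen, and for FPKM levels 34.5% of tested genes did not overlap between the genotypes. After the GC correction its log2 difference was 0.16 and the genotypes overlapped. Of the shares of the 7 genes in their summed FPKM, that of *Sox10* alone did not overlap. It was 0.689%, 0.544% and 0.742% in WT mice 1, 7 and 8, against 0.823%, 0.999% and 0.787% in KO mice 1, 7 and 8. The same exact permutation test gave *p* = 0.1, and this share was also picked after its values were seen. The share was not computed with the GC correction. With that correction, the log2 difference of the ratio of *Sox10* to *Mbp* was -0.27, against 0.25 without it.

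**Figure D4:**
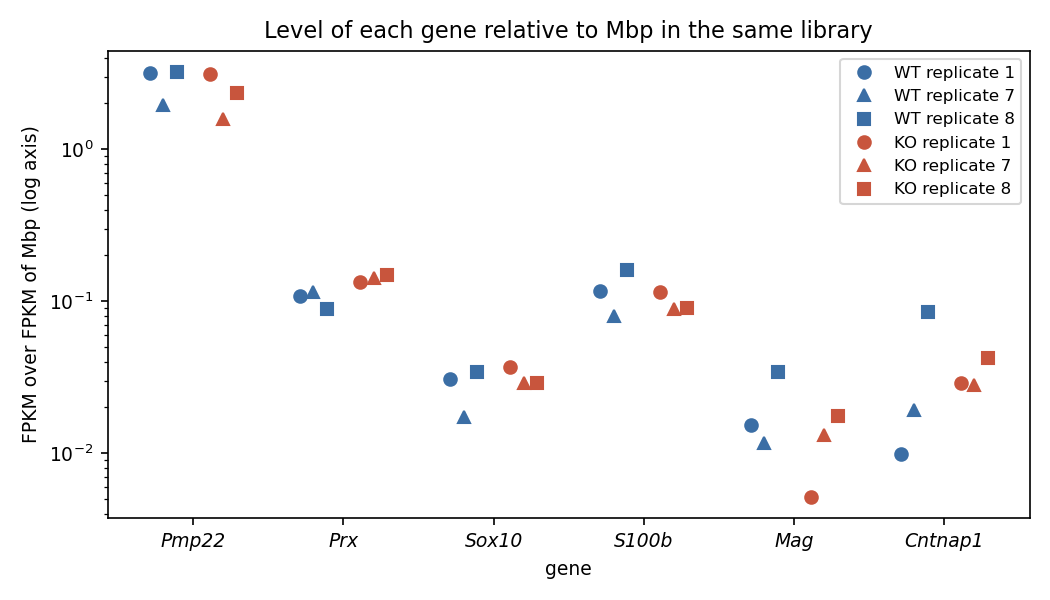
FPKM of each gene divided by the FPKM of *Mbp* in the same library, on a log axis, with a point per library. *Prx* points lie within 1.69-fold of each other, with KO above WT, while *Cntnap1* points spread over 8.55-fold.

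Other genes of the myelin membrane followed the same course in most of those tested. They were listed by their role, but with earlier results of these data known. Of 15 such genes, 9 were tested, 0 were called in either direction and their median log2 fold change was 0.13, beside 0.01 for all tested genes. With the GC correction the median of the 9 was -0.25. Replicate 7 was highest in both genotypes for 7 of the 9, and the full order of libraries was the same as for *Mbp* in those 7. Among the untested genes of the list, *Pmp2*, *Dhh* and *Gpr37l1*, named after their values were seen, did not have replicate 7 highest in both genotypes. The tetraspanin *Cd9* and the myelin enzyme gene *Cnp*, which many other cells express, were the exceptions among the tested genes, since WT replicate 1 was their highest WT library. They ranged from 14.2 to 25.7 FPKM and from 3.41 to 6.69 FPKM over the 6 libraries.

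The tested genes nearest to the mean profile of *Mbp*, *Pmp22*, *Prx* and *S100b* were found by the root mean square difference of centred log2 values over the 6 libraries. Out of 12330 candidates with a median distance of 0.85, the 5 nearest were A330049M08Rik (0.19), *Cntf* (0.27), *Drp2* (0.28), *Cldn19* (0.28) and *Ctu2* (0.30). A330049M08Rik is annotated as *Ncmap*, a gene of non-compact myelin, *Drp2* encodes a partner of periaxin and *Cldn19* a tight junction protein of Schwann cells. These 3 were on the myelin membrane list. *Cntf* encodes ciliary neurotrophic factor, which Schwann cells are known to make. It was measured at 2.57, 4.51 and 1.06 FPKM in WT mice 1, 7 and 8, against 1.29, 3.64 and 1.80 FPKM in KO mice 1, 7 and 8. *Ctu2* acts in the modification of tRNA.

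Most tested genes of the transcription factor and signalling lists did not share this course. Of 12 Schwann cell transcription factors, 5 were tested and 0 were called, with a median log2 fold change of 0.38, or 0.03 with the GC correction, and replicate 7 was highest in both genotypes for 0 of them. Their most abundant genes were *Srebf1*, a lipid synthesis factor, with a log2 fold change of 0.62, *Zeb2* (-0.21), *Nab1* (-0.06) and *Nab2* (0.38), all expressed in many cells. *Egr2*, which encodes the master factor of myelination, was under the filter and was named after its values were seen. It was measured at 0.333, 0.693 and 0.122 FPKM in WT mice 1, 7 and 8, against 0.320, 0.474 and 0.276 FPKM in KO mice 1, 7 and 8. Replicate 7 was thus its highest library in both genotypes, while its lowest KO library was replicate 8, not 1 as for *Mbp*. Of 13 genes of signalling and adhesion, 9 were tested and 0 were called, with a median of 0.46, or 0.25 with the GC correction, and replicate 7 was highest in both genotypes for 1, *Erbb2*. The most abundant were *Dag1*, the dystroglycan gene (log2 fold change 0.56), *Itga6* (-0.07), *Sema3b* (0.57) and *Lpar1* (0.21), with adjusted *p* from 0.174 to 0.880 (limma).

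Of 11 genes of immature and non-myelinating Schwann cells, 5 were tested, with a median log2 fold change of 0.26, and 1 was called. This was *Ncam1*, a cell adhesion gene that muscle fibers also express, measured at 1.12, 1.31 and 1.19 FPKM in WT mice 1, 7 and 8, against 2.90, 3.46 and 3.84 FPKM in KO mice 1, 7 and 8. The genotypes did not overlap, as for 34.5% of all tested genes. The log2 fold change was 1.41 (standard error 0.17, adjusted *p* = 0.0300, limma), or 1.41 with the GC correction. The call did not hold when any 1 library was left out, with adjusted *p* from 0.0546 to 0.235 (limma), nor with the replicate block (adjusted *p* = 0.0954, limma). It was also lost with a pseudocount of 1 (0.0514), without a filter (0.0641) and with the GC correction and replicate block together (0.204, adjusted *p* of limma). The log2 fold change stayed at 0.99 or more. Its lowest and highest KO libraries were replicates 1 and 8, unlike the order of the myelin genes. *Apod* (0.26), *Scn7a* (-0.30) and *L1cam* (1.27) were the other abundant genes of this list, and none was called. Replicate 7 was highest in both genotypes for 2 of the 5 tested genes of the list.

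Of 15 genes of the node and its flanks, 5 were tested and 0 were called, with a median log2 fold change of -0.24, or -0.03 with the GC correction. These 5 included *Dlg1*, *Ank3*, *Cntnap2* and *Ank2*, which muscle fibers express too, and replicate 7 was highest in both genotypes for 0 of them. *Cntnap2*, which encodes the juxtaparanodal protein CASPR2, was lowest in KO replicate 7, at 4.98 FPKM, and at 9.10 to 11.6 FPKM elsewhere (log2 fold change -0.48, adjusted *p* = 0.257, limma). Under the filter and named after its values were seen, *Kcna1*, which encodes the Kv1.1 channel that Kvβ2 binds, was measured at 0.440, 0.806 and 0.305 FPKM in WT mice 1, 7 and 8, against 0.152, 0.633 and 0.394 FPKM in KO mice 1, 7 and 8. Its order of libraries was that of *Mbp* in both genotypes. Of 15 genes of myelin lipid synthesis, 14 were in the table and 10 were tested, 0 were called, and the median was -0.01. *Scd1*, a desaturase that is abundant in fat, was at 186 FPKM in KO replicate 7 and at 9.16 to 37.0 FPKM elsewhere. *Fdft1* (log2 fold change -0.10), *Cers2* (0.22) and *Scd2* (-0.12) were the other abundant genes.

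Adipocyte markers were highest in KO replicate 7, for 8 of 8 genes, and 0 of them were called between the genotypes. Their median log2 fold change was 2.06, and 6 of the 8 had an unadjusted *p* under 0.05, beside 26.2% of all tested genes. Their summed level was 446, 234 and 237 FPKM in WT replicates 1, 7 and 8 and 305, 638 and 343 FPKM in KO replicates 1, 7 and 8. These sums overlapped between the genotypes, and most of each was *Fabp4*. In the KO muscles replicate 7 was highest for fat and for the nerve genes, while in the WT muscles WT replicate 7 was highest for the nerve genes but below WT replicate 1 for *Fabp4*, *Cfd*, *Adipoq* and *Cidec*. *Adipoq*, which encodes adiponectin, was at 2.39 FPKM in WT replicate 7 and 40.4 FPKM in KO replicate 7, where *S100b* was at 1.76 and 2.75 FPKM. The part of fat in the levels of *S100b* was not tested. *Fabp4* (log2 fold change 0.26), *Cfd* (2.11) and *Cidec* (2.24) were the other abundant markers.

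**Figure D5:**
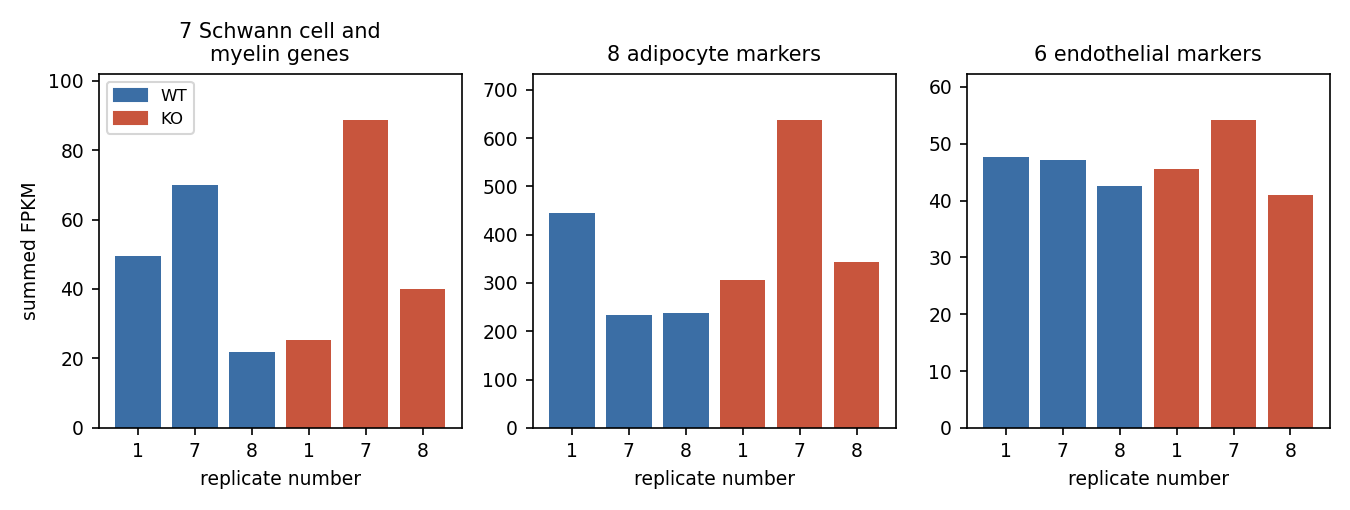
Summed FPKM per library of the 7 Schwann cell and myelin genes, of 8 adipocyte markers and of 6 endothelial markers, with bars from 0 on separate axes. The nerve genes span 22.0 to 88.7 FPKM, the adipocyte markers 234 to 638 FPKM and the endothelial markers 40.9 to 54.2 FPKM.

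Few axonal genes reached the filter. Of 13 neuron and axon genes, 2 were tested and 0 were called, and *Nefl*, *Tubb3*, *Snap25* and *Chat* were listed at 0 in all 6 libraries. A listed 0 need not be a measured absence, since the fast muscle genes *Myh4* and *Tnnt3* are also listed at 0 throughout. The tested genes were *Uchl1*, at 0.698 to 0.896 FPKM in WT and 1.73 to 2.36 FPKM in KO muscle (log2 fold change 1.17, adjusted *p* = 0.0667, limma), and *Stmn2* (0.81, adjusted *p* = 0.126, limma). *Uchl1* did not overlap between the genotypes, as 34.5% of all tested genes did not, and with the GC correction its log2 fold change was 0.66 (adjusted *p* = 0.298, limma). With the same correction, that of *Stmn2* was 1.08 (adjusted *p* = 0.287, limma). *Prph* and *Nefh* stayed between 0.135 and 0.510 FPKM.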

How the data were processed

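RNA from whole GAS muscle, 1 library for each of 6 mice, was grouped by genotype from the labels. Per the labels and methods, the authors mapped paired reads from stranded mRNA libraries to GRCm38 with TopHat and computed FPKM with Cufflinks; versions and annotation release are not given in the sources used here. The deposited FPKM of 37979 genes were used as they are, without counts, and no 2 libraries shared more than 1 value among genes above 0 in all.

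Genotypes were compared on log2(FPKM + 0.1) by limma 3.58.1 (R 4.3.3) with a variance trend. The fit took the 12334 genes whose mean reached 0.5 FPKM, with Benjamini-Hochberg adjustment. The pseudocount understates the change of low genes. Genes under the filter were compared by exact permutation tests, two-sided. The script was tested on simulated data.

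Depth was estimated from genes with 1 GENCODE vM21 transcript of 1500 to 6000 bases, less 150 bases; 90.0% to 94.2% of low values lay within 0.15 of a whole fragment. GC content (97.2% of tested genes) was corrected by loess, span 0.3. The 7 genes and all lists were chosen with earlier results of these data known. Named genes are the 7, *Kcnab2*, the 4 most abundant and any called gene of each list, and the 5 nearest profiles; others are said to be chosen after their values were seen. Some genes that this rule names are not reported here, though list counts and medians include them. The lists cover myelin membrane, transcription factors, signalling and adhesion, immature Schwann cells, node, lipid synthesis, axon, perineurium, muscle fiber, adipocyte, fibroblast and tendon, endothelium and macrophage. Figures were drawn with matplotlib 3.10.9.
Alternatives were other pseudocounts, filters, scalings and variance models, array weights, a replicate block, GC and length corrections, and each library left out.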

Additional observations from a re-analysis of the deposited data

How the results depend on the processing

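None of the 7 genes passed the threshold in any of the 115 alternative values, of which 21 had the opposite sign; adjusted *p* of limma ranged from 0.288 to 0.999, and the exact tests could not go below 0.1. With each library left out, log2 fold changes ranged from -0.41 to 0.80 for *Mbp*, -0.46 to 0.31 for *Pmp22*, 0.00 to 1.20 for *Prx*, -0.091 to 0.75 for *Sox10*, -0.54 to 0.42 for *S100b*, -0.60 to 0.39 for *Mag* and 0.02 to 0.95 for *Cntnap1*, and 11 to 38 genes were called. With array weights, *Mbp* was at -0.71, *Prx* at -0.33 and *S100b* at -0.55. In that fit WT replicate 7 had a weight of 6.12, and the other libraries had weights of 0.355 to 1.97. With the GC correction, *Mbp* was at -0.050, also with the replicate block, and *Sox10* at -0.32. *S100b* was at -0.073 with median scaling, -0.074 with quantile normalization and -0.079 with the length correction, and *Mag* at 0.0046 with a pseudocount of 1. Over all genes, 40 were called, against 11 with a pseudocount of 1, 20 without a filter, 24 with median scaling, 18 with quantile normalization, 19 without a variance trend, 3147 with array weights, 13 with the replicate block, 14 with the GC correction, 12 with both, and 19 with the length correction. With genes above 0 in every library, a choice made after seeing the data, 1 was called. The cause of these shifts was not tested. Of the 40 calls 77.5% were higher in KO muscle, against 62.5% with median scaling, 61.1% with quantile normalization, 57.9% with the length correction and 42.9% with the GC correction; median scaling moved the median log2 fold change from 0.01 to -0.08.

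In the labels, KO and WT replicates of one number share only the number. The correlation of their deviations across genes was -0.03, -0.08 and 0.03 for 1, 7 and 8. Whether such pairs shared a litter or a batch was not tested. The replicate block left the log2 fold changes as they were and narrowed the standard error of *Mbp* from 0.70 to 0.39 and of *Prx* from 0.73 to 0.45, with 0 of the 4 tested genes called. With 3 mice per genotype and *Mag* on as few as 1.00 fragment, moderate changes were not detectable.
*Ncam1* was past the threshold in 8 of its 19 alternatives, and its log2 fold change of 0.99 to 1.52 never changed sign in them.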

Other observations

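Cells other than Schwann cells and fat were followed through 5 more lists, and 0 of their genes were called between the genotypes. Of 10 perineurial and endoneurial genes, 4 were tested. *Slc2a1*, the glucose transporter gene of perineurial cells and many others, was at 1.46 to 1.64 FPKM in WT and 2.59 to 3.47 FPKM in KO muscle without overlap, as for 34.5% of all tested genes (log2 fold change 0.91, adjusted *p* = 0.0667, or 0.61 and 0.285 with the GC correction, limma). The others were *Cldn1* (-0.03), *Etv1* (-0.49) and *Itgb4* (1.11, or 0.53 with the GC correction), and *Itgb4*, which encodes a laminin receptor subunit of Schwann cells, was at 2.42 FPKM in KO replicate 7 and 0.434 FPKM in WT replicate 7. Of 12 muscle fiber genes, 10 were tested, with a median log2 fold change of 0.78, or 0.42 with the GC correction, and summed levels of 22557 to 32771 FPKM in WT and 37045 to 39279 FPKM in KO muscle. The most abundant were *Pvalb* (-0.15), *Acta1* (0.83), *Ckm* (0.81) and *Actn3* (0.26).

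The 9 fibroblast and tendon genes had a median log2 fold change of 0.34 and summed levels of 424 to 658 FPKM in WT and 428 to 663 FPKM in KO muscle, led by *Dcn* (-0.15), *Col1a2* (0.78), *Fmod* (1.18) and *Col3a1* (0.25). The 6 endothelial genes stayed at a summed 42.7 to 47.7 FPKM in WT and 40.9 to 54.2 FPKM in KO muscle, with *Pecam1* (0.09), *Cdh5* (0.20), *Emcn* (-0.10) and *Kdr* (-0.44). For 2 of these 6 genes replicate 7 was highest in both genotypes, and 1 of them, *Kdr*, had the full order of *Mbp*. Of 7 macrophage genes, 6 were tested, with a median of 0.59, led by *C1qb* (0.71), *C1qa* (1.11), *Csf1r* (0.47) and *Mrc1* (0.19). Their sum was highest in KO replicate 7, at 32.7 FPKM, while in the WT muscles it was highest in replicate 8, at 20.9 FPKM, the library with the lowest summed Schwann cell and myelin genes.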
